A study of Mus musculus with 9 samples.

Results

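Integrins, laminins and fibronectin were examined in ST2 cells, a mouse bone marrow stromal cell line that can be driven towards osteoblasts. The members were the protein-coding genes whose symbols name an integrin alpha chain (18 genes), an integrin beta chain (8) or a laminin chain (11), together with fibronectin, Fn1, which made 38 of the 54532 genes in the deposited table. Messenger RNA was sequenced from 9 libraries of wild-type cells taken after 72 h. The vehicle group had 3 libraries, the rhWnt3a group (recombinant human Wnt3a, 50 ng/ml) had 3, and a group titled as rhWnt3a combined with OSMI had 3. OSMI (20 µM) inhibits OGT, the enzyme that places O-GlcNAc on proteins. The treatment label of the last group names OSMI alone and does not give its rhWnt3a dose, so the group is taken here from the sample titles. There was no group with OSMI alone, and the effect of OSMI was therefore measured only on top of rhWnt3a. The study calls the replicates of this RNA sequencing biological, while the labels do not say whether they came from separate cultures, and p-values measure the spread between these libraries. A single cell line grown in culture has no basement membrane or neighbouring tissue, and only messenger RNA was measured, not chains at the cell surface.

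Integrins are receptors built from an alpha and a beta chain, and they join the cell to its matrix and, through talins and kindlins, to actin. Itgb1, the beta1 chain, pairs with most of the alpha chains measured here, whereas Itgb4 pairs only with Itga6 and anchors epithelial cells to laminin. Laminins are trimers of an alpha, a beta and a gamma chain and are the main adhesive proteins of basement membranes. Lama3 and Lamb3 are chains of the laminin of epithelial anchoring sites. Fibronectin is bound through its RGD sequence by the integrin of Itga5 and Itgb1, and this pair assembles fibronectin fibrils around stromal cells and osteoblasts.

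The libraries held 16135898 to 17583945 counts each, so that 3 counts corresponded to 0.17 to 0.191 CPM (counts scaled to the library size, with TMM). In every group a single library lay apart from the others, namely vehicle replicate 3, rhWnt3a replicate 2 and rhWnt3a with OSMI replicate 3. Their mean squared log2 difference from the other libraries of the group was 0.392 to 0.439, against 0.111 to 0.119 between the remaining pair. Long genes had lower counts in vehicle replicate 3 and rhWnt3a replicate 2 (−0.30 and −0.50 log2 units per log10 unit of gene length) and higher counts in rhWnt3a with OSMI replicate 3 (0.68), while the slopes of the other 6 libraries lay between −0.02 and 0.07. Of the defining stromal markers, collagen genes and Pdgfra were abundant, whereas Thy1 had 0 to 4 counts, Eng 11 to 49 and Nt5e 14 to 80. Epithelial markers were nearly absent (Epcam at 0 or 1 count, Krt5, Krt14 and Krt18 at 0). Of the leukocyte markers, Ptprc (0 to 2 counts) and Cd3e (0) were too, whereas Lyz2 had 11 to 160 counts and Cd74 34 to 131.

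Fn1 was by far the most abundant member. Per length, its mean over the 9 libraries was 2393 FPKM, which ranked 7 among all genes. Itgb1 followed at 312 FPKM and Itgb5, the beta5 chain that pairs with Itgav, at 88.7 FPKM. Lamc1 (68.5 FPKM), Lamb2 (56.9) and Lamb1 (30.5) were the leading laminin beta and gamma chains, and Lama2 (19.3), Lama1 (12.5) and Lama4 (8.21) the leading alpha chains. Among integrin alpha chains the order was Itga5 (43.3 FPKM), Itga11 (28.6), Itga10 (20.0) and Itgav (18.2). Orders of chains with close values depend on the gene length used. For Lama4 and Itgav it was 12068 and 10744 bases, against 6046 and 7054 in their longest transcripts. The leading messenger RNAs were thus those of chains found in receptors for fibronectin, collagen and vitronectin, beside the laminin chains Lama1, Lama2, Lama4, Lamb1, Lamb2 and Lamc1. Which pairs and trimers formed was not measured.

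Of the 38 members, 29 had enough counts to be tested. The other 9 had 0 to 8 counts in any library. They were the leukocyte chains Itgad (1 to 7 counts), Itgal (0 to 8), Itgax (0 to 1) and Itgam (0), the chains Itga2 (0 to 5) and Itga4 (0 to 3) that bind collagen and VCAM1, the epithelial chain Itgb6 (0 to 2), and the laminin chains Lama3 (0 to 4) and Lamc3 (1 to 4). Itgam had no count in any library, which allows up to 3 counts in each, and 68.7% of its exon bases belong also to the gene Gm49368, listed at 0 as well.

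The first question was what rhWnt3a did to these genes. With rhWnt3a against vehicle, 8 of the 29 tested members fell (27.6%, against 5.86% of the 14004 genes tested) and 1 rose (3.45%, against 2.92%), by edgeR's quasi-likelihood test. A call needed an adjusted p under 0.05 together with a fold change of more than 0.5 on the log2 scale. The members that fell included Itgb4, Lamb3, Itga6, Itgb7, Itga3, Itga8 and Itga5, and the member that rose was Itga9. The median log2 fold change of the tested members was −0.49, against 0.04 for all tested genes, and 23 of 29 lay below 0. In 15 members all rhWnt3a libraries lay below all vehicle libraries (51.7%, against 14.2% of all genes), and in 2 they lay above (6.90%, against 12.2%).

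Adding OSMI to rhWnt3a moved fewer members. Against rhWnt3a alone, Itga8 rose (1 of 29, 3.45%, against 1.69% of all genes) and Itga9 and Itgb2 fell (2 of 29, 6.90%, against 3.05%). The median of the members was −0.02, against −0.01 for all genes, and the groups did not overlap in 3 members that were lower (10.3%, against 17.0%) and 5 that were higher (17.2%, against 16.7%). Against vehicle, rhWnt3a with OSMI lowered 9 members (31.0%, against 9.34% of all genes), namely Lamb3, Itgb4, Itgb7, Itgae, Lama4, Itga6, Itgb2, Itga3 and Itga5. No member was called higher in that comparison by edgeR (0 of 29, against 4.84%), while 2 members passed the fold threshold at an unadjusted p under 0.05 (against 8.60%) and DESeq2 called 1 (against 4.77%). The libraries of the combined treatment lay below all vehicle libraries in 11 members (37.9%, against 19.5%) and above them in 2 (6.90%, against 19.3%). These 3 comparisons share libraries, since the rhWnt3a libraries enter the first and second and the vehicle libraries enter both comparisons with vehicle. In all, 12 members were called in at least 1 comparison, and 6 of them (Itgb4, Lamb3, Itga6, Itga3, Itgb7 and Itga5) were lower than vehicle both with rhWnt3a and with rhWnt3a and OSMI. The matching shares of all genes were not taken for these joint counts. Calls in both comparisons with vehicle rest on the same vehicle libraries, so whether the joint counts exceed the background is not known.

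**Figure D1:**
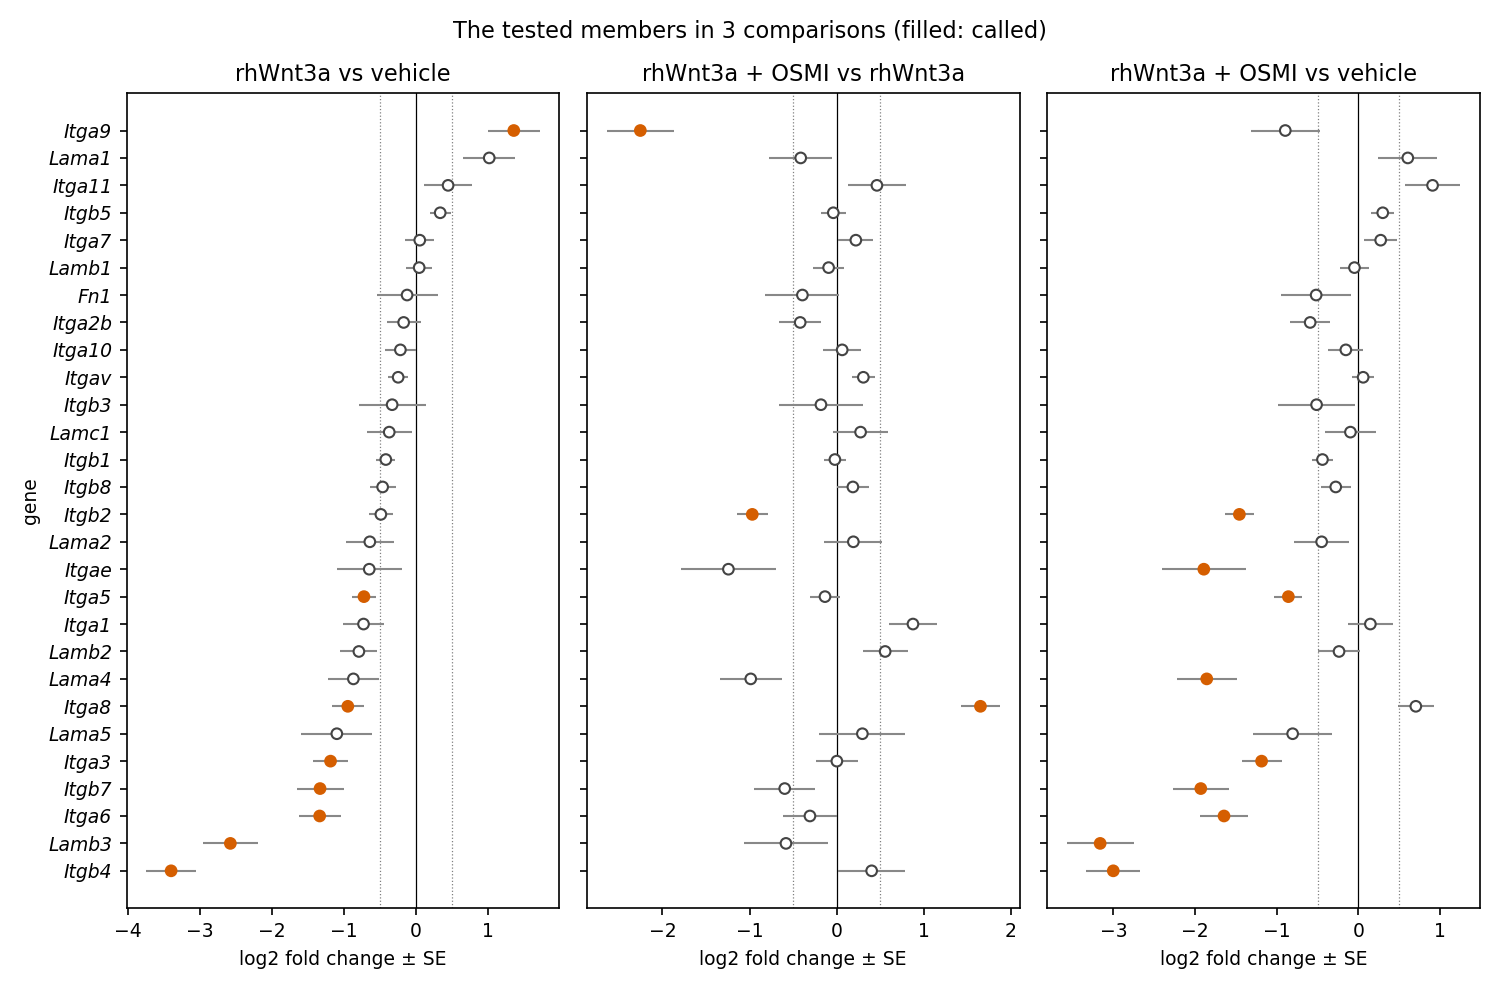
Log2 fold change ± SE from the edgeR fit (x axis) of 28 tested members (y axis) in each of the 3 comparisons. Filled points were called, and dotted lines mark the fold threshold of 0.5. Called points lie mostly to the left of 0 against vehicle, with Itgb4 and Lamb3 farthest, and Itga8 is the called point right of 0 when OSMI was added.

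The counts rest in part on the libraries that lay apart. Of the tested members 26 of 29 were longer than the median tested gene (7368 against 4039.5 bases at the median), and members deviated from the other libraries of their group in the same direction as long genes in general. In vehicle replicate 3, 23 of 29 were lower than the mean of the other vehicle libraries (median −0.31 log2 CPM, against 0.01 for all genes), in rhWnt3a replicate 2, 20 of 29 were lower (median −0.34), and in rhWnt3a with OSMI replicate 3, 24 of 29 were higher (median 0.45). Across the 29 members, which are not independent, the deviation correlated with log10 length at r = −0.58, −0.49 and 0.32 (Spearman's rho −0.60, −0.52 and 0.27). Itgb1, with 4081 bases, deviated by 0.08, 0.07 and −0.09, whereas Fn1, with 11685 bases, deviated by −1.19, −1.47 and 0.37. Without these 3 libraries, a choice that narrows the spread by construction, 13 members were lower and 3 higher with rhWnt3a (background 11.4% and 6.70%), 5 lower and 2 higher when OSMI was added (8.69% and 3.99%), and 16 lower and 0 higher with both against vehicle (15.7% and 8.02%). With all 9 libraries and an offset for each library's length trend, 11 members were lower and 1 higher with rhWnt3a (7.23% and 3.65%), and the higher member was then Lama1 in place of Itga9.

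**Figure D2:**
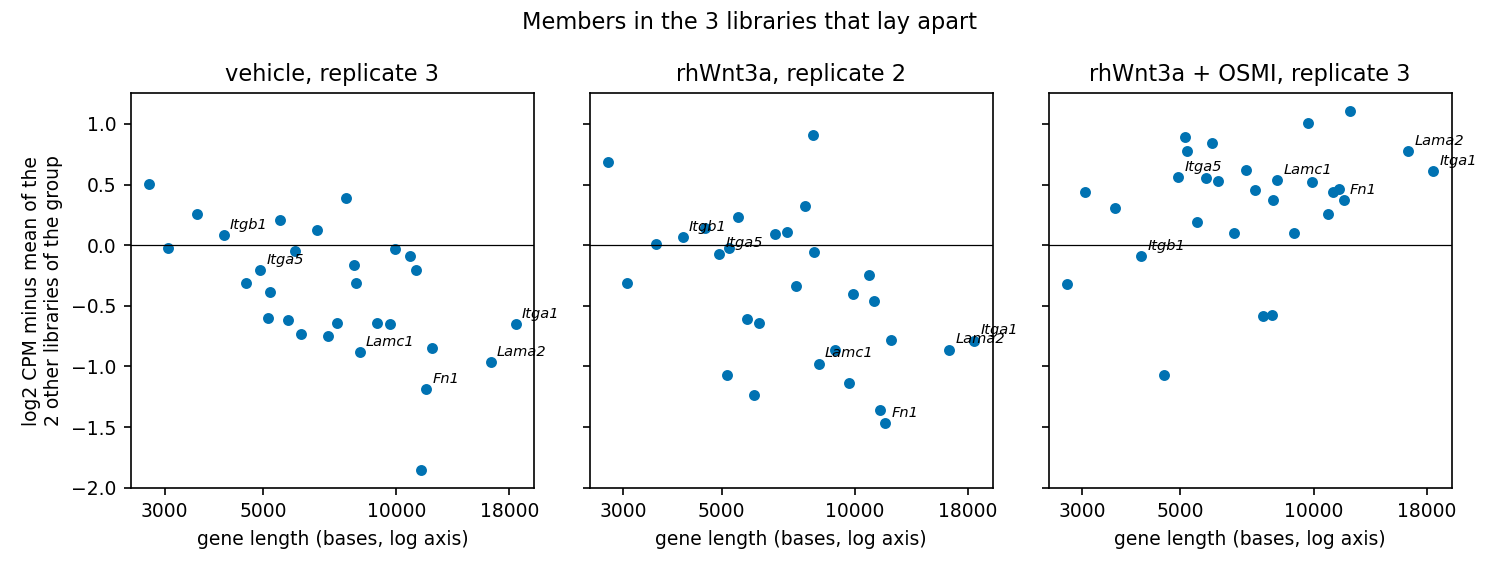
Difference between the log2 CPM of a member in the library that lay apart and the mean of the other libraries of its group (y axis) against gene length in bases (x axis, log scale), for vehicle replicate 3, rhWnt3a replicate 2 and rhWnt3a with OSMI replicate 3. Long members such as Fn1, Lama2 and Itga1 lie below 0 in the vehicle and rhWnt3a panels and above 0 in the panel of rhWnt3a with OSMI, and Itgb1 lies near 0 in each.

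Of the 3 integrin alpha chains that bind laminin, Itga3 and Itga6 fell with rhWnt3a and stayed low with OSMI, while Itga7 did not pass the test. Itga3, the alpha3 chain (chr11:95044474-95076801, minus strand, GRCm38), had 895, 828 and 618 counts with vehicle, 374, 271 and 407 under rhWnt3a, and 309, 303 and 455 under rhWnt3a plus OSMI. Every library with rhWnt3a lay below every vehicle library, and the groups with and without OSMI overlapped. Itga3 fell by 1.19 ± 0.24 (log2, SE) with rhWnt3a (edgeR adjusted p = 0.0135) and was 2.27-fold lower than vehicle with rhWnt3a and OSMI as well (log2 −1.18 ± 0.24, edgeR adjusted p = 0.0102). Between the groups with and without OSMI its log2 difference was 0.002 ± 0.24. Without vehicle replicate 1 the adjusted p of the rhWnt3a comparison was 0.0644 and without vehicle replicate 2 it was 0.0614. Against vehicle the combined treatment lost its call without vehicle replicate 1 (0.0518), rhWnt3a with OSMI replicate 1 (0.0538) or replicate 2 (0.054).

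Itga6, the alpha6 chain (chr2:71745616-71858416, plus strand), was scarce, with 120, 122 and 85 counts with vehicle, 56, 29 and 47 under rhWnt3a, and 37, 33 and 38 under rhWnt3a plus OSMI. Again no treated library reached the vehicle range. It was 2.53-fold lower with rhWnt3a (log2 −1.34 ± 0.29, edgeR adjusted p = 0.0183) and 3.13-fold lower with rhWnt3a and OSMI (edgeR adjusted p = 0.0052). The first of these calls was lost without vehicle replicate 1 (0.0729), vehicle replicate 2 (0.0826) or rhWnt3a replicate 3 (0.0645). A stretch of 7.56% of its longest transcript is nearly identical to the gene Gm29397, so a small part of these reads is uncertain. Itga7, the alpha7 chain of muscle, had 91 to 147 counts and differed by 0.05 ± 0.20 with rhWnt3a.

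Itgb4, the beta4 partner of alpha6, showed the largest fall of any tested member with rhWnt3a. It had 132, 104 and 76 counts with vehicle, 10, 11 and 9 under rhWnt3a, and 13, 9 and 18 under rhWnt3a plus OSMI. The groups were widely separated from vehicle and overlapped between the treatments. Its level was 10.6-fold lower with rhWnt3a (log2 −3.40 ± 0.35, edgeR adjusted p = 0.000267) and 8.01-fold lower with rhWnt3a and OSMI (log2 −3.00 ± 0.33, edgeR adjusted p = 0.000375), and all 21 alternative settings in which it could be tested kept both calls. At 6.33 ± 1.90 CPM (SD, n = 3) with vehicle it was a rare transcript, and 7.66% of its exon bases overlap an antisense gene, B230344G16Rik, that had 11 counts in all.

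The short regions before the starts of Itga3 and of Itga5, the fibronectin receptor described next, are shown as examples from chains that fell in both comparisons with vehicle. Neither region holds the core of a TCF/LEF site, the element through which β-catenin acts, as was so for most promoters. Both come from RefSeq (GRCm38.p6, minus strand, 250 bases before to 50 bases after a transcript start), and capitals mark GC boxes, GGGCGG or its reverse complement CCGCCC, a search that was added after the values had been seen.
Itga3, chr11:95076665-95076964: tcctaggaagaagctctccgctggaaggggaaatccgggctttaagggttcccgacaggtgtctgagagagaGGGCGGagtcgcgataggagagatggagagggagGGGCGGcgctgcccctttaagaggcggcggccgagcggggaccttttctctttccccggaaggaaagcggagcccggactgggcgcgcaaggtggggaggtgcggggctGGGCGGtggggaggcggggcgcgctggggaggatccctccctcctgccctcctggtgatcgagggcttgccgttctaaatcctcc
Itga5, chr15:103366742-103367041: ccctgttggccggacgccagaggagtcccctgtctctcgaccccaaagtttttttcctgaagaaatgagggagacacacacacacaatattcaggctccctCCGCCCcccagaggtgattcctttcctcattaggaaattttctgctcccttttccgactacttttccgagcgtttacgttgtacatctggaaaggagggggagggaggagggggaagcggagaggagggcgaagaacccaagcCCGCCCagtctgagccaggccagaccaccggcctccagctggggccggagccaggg
A further RefSeq start of Itga3 (chr11:95069149-95069448) has its own window, with a single GC box at −246 and no TCF/LEF core. The Itga3 window shown held GC boxes at −178, −144 and −35 and the Itga5 window at −149 and −6, counted from the start. Among the other members that fell in both comparisons with vehicle, Itgb4 and Itga6 had no window to search. Those of Itgb7 and Lamb3 held no TCF/LEF core and no GC box, so the windows shown do not stand for all of these members. Such a box occurred in 12 of the 26 promoters of the 23 members found in the table and in 35.7% of its 32851 promoters. The TCF/LEF cores CTTTGAT and CTTTGAA, searched on both strands, occurred in 8.65% of all promoters and in 2 of the 26 member promoters, those of the collagen receptors Itga1 (CTTTGAA at −113) and Itga10 (CTTTGAA at −187), neither of which was called. These matches describe letters only, and other parts of the genes were not searched.

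Among the 4 alpha chains that bind RGD sequences, Itga5 and Itga8 fell with rhWnt3a and then parted, since Itga8 rose when OSMI was added and Itga5 did not. Itga5, the alpha5 chain of the fibronectin receptor (chr15:103344286-103366763, minus strand), had 5057, 5058 and 4831 counts with vehicle, 3015, 3108 and 3139 under rhWnt3a, and 2443, 2434 and 3636 under rhWnt3a plus OSMI. All treated libraries lay below vehicle, and rhWnt3a with OSMI replicate 3 was the highest of them. It was 1.65-fold lower with rhWnt3a (log2 −0.72 ± 0.17, edgeR adjusted p = 0.0251) and 1.81-fold lower with rhWnt3a and OSMI (log2 −0.86 ± 0.17, edgeR adjusted p = 0.00823). The first call was lost whenever a vehicle replicate 1 or 2 or any rhWnt3a library was left out (adjusted p 0.0782 to 0.12), with log2 fold changes that stayed between −0.65 and −0.74. The second was lost without rhWnt3a with OSMI replicate 1 (0.0576) or replicate 2 (0.0542).

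Itga8, the alpha8 chain that binds nephronectin and fibronectin (chr2:12106632-12301922, minus strand), had 600, 527 and 396 counts with vehicle, 271, 239 and 300 under rhWnt3a, and 669, 859 and 1048 under rhWnt3a plus OSMI. The 3 groups did not overlap, with rhWnt3a lowest and rhWnt3a with OSMI highest. It was 1.93-fold lower with rhWnt3a (log2 −0.95 ± 0.22, edgeR adjusted p = 0.0245) and 3.14-fold higher once OSMI was added (log2 1.65 ± 0.22, edgeR adjusted p = 0.00452). The rise with OSMI was called in all 22 alternatives in which it was tested. The fall with rhWnt3a was not called without vehicle replicate 1 or 2 or without any rhWnt3a library (adjusted p 0.0604 to 0.113). Against vehicle the combined treatment gave a log2 difference of 0.70 ± 0.22 that missed the threshold (edgeR adjusted p = 0.0551) but passed it by DESeq2 (0.0335) and with the length offset (0.036). It was called in 8 of 22 alternatives, and it was 0.31 ± 0.10, under the fold threshold, without the 3 libraries that lay apart, and had an adjusted p of 0.13 with a replicate block. An antisense gene, E030013I19Rik, overlaps 5.05% of its exon bases and had 10 counts in all.

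Itgav, the alphaV chain of vitronectin receptors (chr2:83724397-83806916, plus strand), had 3510, 3243 and 3498 counts with vehicle, 2944, 2720 and 3135 under rhWnt3a, and 3173, 3690 and 4135 under rhWnt3a plus OSMI. The rhWnt3a libraries lay below both other groups, but the differences were small, at −0.25 ± 0.13 with rhWnt3a (edgeR adjusted p = 0.369) and 0.31 ± 0.13 when OSMI was added (edgeR adjusted p = 0.213). The platelet chain Itga2b, at 35 to 81 counts, was not called.

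Itga9, the alpha9 chain that binds tenascin-C and VCAM1 (chr9:118606690-118901003, plus strand), was the member called higher with rhWnt3a. It had 7, 12 and 14 counts with vehicle, 28, 35 and 24 under rhWnt3a, and 8, 6 and 4 under rhWnt3a plus OSMI. The rhWnt3a libraries stood above both other groups, which overlapped each other. The rise was 2.57-fold (log2 1.36 ± 0.36, edgeR adjusted p = 0.0424) and was called in 6 of 20 alternatives. Leaving out any of 8 libraries gave an adjusted p of 0.0558 to 0.163, and the call was also lost without the count filter, with the 6 libraries of the comparison alone (0.0576), with a replicate block (0.12, or 0.135 with the length offset too) and with the length offset (0.0596, or 0.0598 with GC content). The fall with OSMI was 4.77-fold (log2 −2.25 ± 0.39, edgeR adjusted p = 0.0123) and was lost without rhWnt3a with OSMI replicate 2 (0.0673). At 0.35 to 1.71 mean CPM this is a rare transcript.

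With all libraries and no offset, the 3 tested chains that bind collagen were not called in any comparison. Itga11, the main collagen receptor chain of fibroblasts, had 1385 to 1985 counts with vehicle, 1457 to 2903 under rhWnt3a and 2576 to 4904 under rhWnt3a plus OSMI, and all libraries of the last group lay above vehicle (log2 0.91 ± 0.34, edgeR adjusted p = 0.101). Itga10 had 1284 to 2445 counts, and 33.5% of its exon bases are shared with the gene Gm42957 on the same strand, so that its level is uncertain. Itga1, the longest member at 18599 bases, had 319 to 493 counts with vehicle, 178 to 295 under rhWnt3a and 364 to 617 under rhWnt3a plus OSMI. With rhWnt3a it was below every vehicle library (log2 −0.73 ± 0.28, edgeR adjusted p = 0.166), and it was called lower with the length offset (−0.77 ± 0.13, adjusted p = 0.00259). With OSMI added every library lay above rhWnt3a (log2 0.88 ± 0.28, edgeR adjusted p = 0.106), and this rise was called by DESeq2 (0.0377) and with the length offset (0.59 ± 0.13, adjusted p = 0.0198), but at 0.42 ± 0.11 it was under the fold threshold without the 3 libraries that lay apart.

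Of the 7 tested beta chains, Itgb4 and Itgb7 fell with rhWnt3a, and Itgb2 fell when OSMI was added. Itgb1 (chr8:128685654-128733200, plus strand), the common partner chain, had 24460, 24689 and 28720 counts with vehicle, 18794, 21200 and 19390 under rhWnt3a, and 19214, 20794 and 18950 under rhWnt3a plus OSMI. Every treated library lay below every vehicle library, and the treated groups overlapped. Its fall of 0.42 ± 0.13 with rhWnt3a had an edgeR adjusted p of 0.0843, and the fall of 0.44 ± 0.13 with rhWnt3a and OSMI one of 0.0486. DESeq2 gave adjusted p-values of 4.47e-05 and 1.55e-05 and the length offset 0.0323 and 0.0243, whereas the replicate block gave 0.225 and 0.133, and in all 22 alternatives the falls stayed below the fold threshold. Per length Itgb1 was at 365, 381 and 388 FPKM with vehicle, 273, 292 and 277 FPKM in the rhWnt3a libraries, and 277, 284 and 272 FPKM with OSMI added. Its share of the FPKM of all beta chains was 80.9 ± 0.81% with vehicle, 73.0 ± 0.62% with rhWnt3a and 73.5 ± 3.34% with both, while the share of Itgb5 was 16.3 ± 1.02%, 24.9 ± 0.33% and 24.8 ± 3.07%. For both chains the vehicle libraries did not overlap either treated group in these shares (exact two-sided permutation p = 0.1, the smallest that 3 against 3 libraries can give, over 20 such quantities in 3 comparisons).

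Itgb2, the beta2 chain of leukocyte integrins (chr10:77530252-77565708, plus strand), had 269, 246 and 279 counts with vehicle, 199, 172 and 205 under rhWnt3a, and 90, 86 and 121 under rhWnt3a plus OSMI. The groups did not overlap and descended in that order. Adding OSMI lowered it 1.96-fold (log2 −0.97 ± 0.18, edgeR adjusted p = 0.0151), and against vehicle it was 2.74-fold lower (log2 −1.46 ± 0.18, edgeR adjusted p = 0.000599). The call with OSMI was lost without rhWnt3a replicate 1 (0.0616) or 3 (0.07) or rhWnt3a with OSMI replicate 1 (0.0856) or 2 (0.084). Itgb7, the beta7 chain of lymphocyte integrins (chr15:102215995-102231944, minus strand), had 48, 72 and 93 counts with vehicle, 27, 40 and 19 under rhWnt3a, and 17, 24 and 16 under rhWnt3a plus OSMI. It was 2.52-fold lower with rhWnt3a (edgeR adjusted p = 0.0307) and 3.81-fold lower with both (edgeR adjusted p = 0.0045), with no overlap with vehicle. Without vehicle replicate 2 or 3 or rhWnt3a replicate 1 or 3 the first call was lost (0.0806 to 0.129).

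Their usual partner chains were close to absent. Itgae, the alphaE partner of beta7, had 15, 11 and 11 counts with vehicle, 7, 9 and 8 under rhWnt3a, and 3, 6 and 1 under rhWnt3a plus OSMI, and these groups did not overlap. It was 3.71-fold lower with rhWnt3a and OSMI than with vehicle (log2 −1.89 ± 0.52, edgeR adjusted p = 0.0348), a call kept in 10 of 20 alternatives and lost when any of 6 libraries was left out (0.0601 to 0.113). The summed level of 10 leukocyte markers was 10.8 to 18.5 CPM with vehicle, 5.92 to 8.81 under rhWnt3a and 2.97 to 6.71 under rhWnt3a plus OSMI, and the treated groups overlapped. For comparison, 10 stromal markers summed to 18940 to 25630, 15820 to 18670 and 8473 to 16210 CPM in the same order. In that sum Col1a1 and Col1a2 had the highest counts. Whether the sums of the 2 lists moved for a shared reason was not tested. Only 3 of the leukocyte markers had enough counts to be tested. Lyz2, the lysozyme of myeloid cells, had 90, 103 and 160 counts with vehicle, 36, 39 and 38 under rhWnt3a, and 62, 41 and 11 under rhWnt3a plus OSMI, and was lower with both than with vehicle (log2 −1.65 ± 0.46, edgeR adjusted p = 0.0382). Cd74, the invariant chain of antigen presentation, had 68, 65 and 131 counts with vehicle and 34, 38 and 34 under rhWnt3a plus OSMI, and was lower with both as well (log2 −1.34 ± 0.32, edgeR adjusted p = 0.0193), while with rhWnt3a it overlapped vehicle (log2 −0.11 ± 0.30). Cd68, of macrophages, went from 14 to 30 counts with vehicle to 5 to 15 with both and was not called. The other 7 leukocyte markers, Ptprc and Cd3e among them, had 0 to 6 counts in any library. In RNA from whole cultures, fewer cells of a type and less RNA per cell cannot be told apart, and the part of other cells in these results was not tested. The summed level of 8 epithelial markers was at most 0.459 CPM in any library. The other beta chains were not called: Itgb5 had 4080 to 6645 counts, with a stretch of 10.5% of its longest transcript nearly identical to Gm38317, Itgb8 had 582 to 1056, and Itgb3 had 7 to 23.

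**Figure D3:**
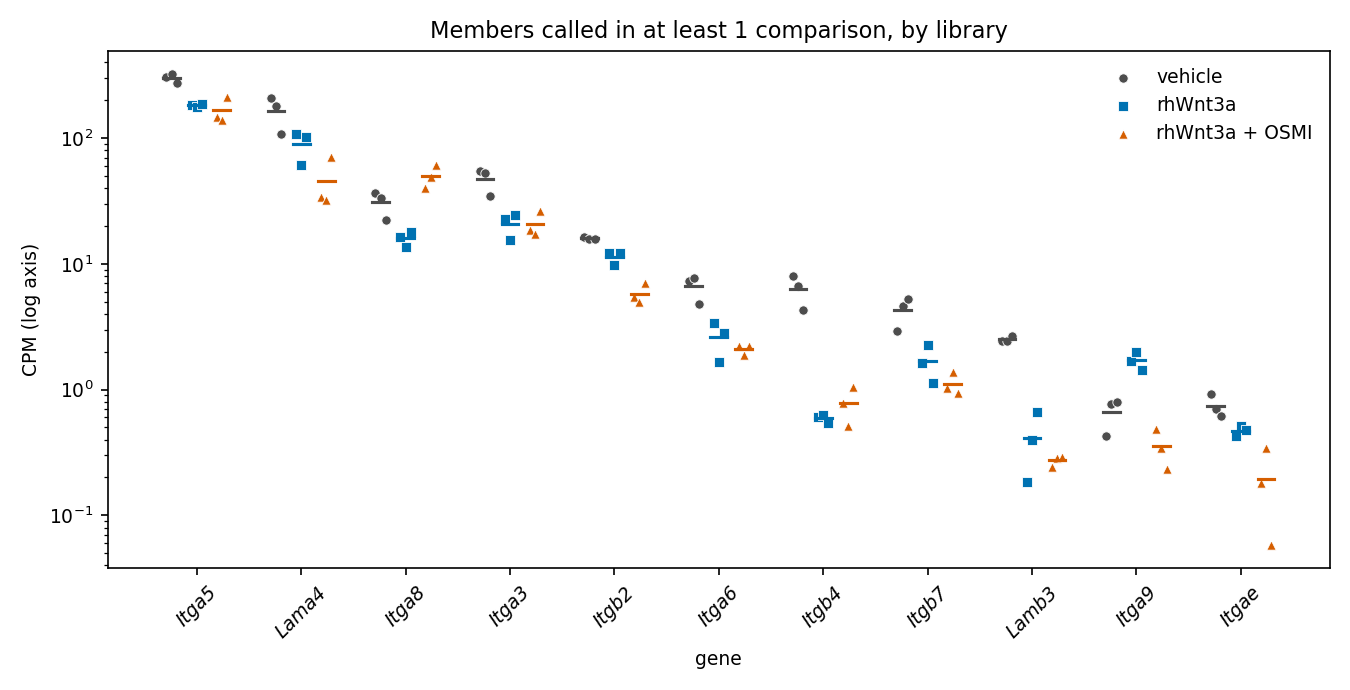
CPM of 11 members called in at least 1 comparison (y axis, log scale) in each library, with a bar at the mean of each group of 3. Itga8 is lowest with rhWnt3a and highest with rhWnt3a and OSMI, Itga9 shows the reverse, and Itgb4, Lamb3, Itga6, Itga3, Itgb7 and Itga5 are below every vehicle library in both treated groups.

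Among the laminin chains, Lamb3 was called lower with rhWnt3a and the abundant chains were not called. Lamb3, the beta3 chain (chr1:193207699-193343878, plus strand), had 40, 38 and 47 counts with vehicle, 3, 7 and 11 under rhWnt3a, and 4, 5 and 5 under rhWnt3a plus OSMI. The vehicle libraries stood far above both treated groups. It was 5.98-fold lower with rhWnt3a (log2 −2.58 ± 0.39, edgeR adjusted p = 0.00236) and 8.95-fold lower with both (log2 −3.16 ± 0.41, edgeR adjusted p = 0.000875), and the 20 alternatives in which it was tested kept both calls. Lama3, an alpha chain that joins it, was not tested at 0 to 4 counts.

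Lama1 and Lama4 exchanged rank in deposited FPKM between vehicle and the treated libraries. Lama4, the alpha4 chain of mesenchymal and vessel laminins (chr10:38965515-39110188, plus strand), had 3412, 2821 and 1903 counts with vehicle, 1774, 1076 and 1708 under rhWnt3a, and 561, 558 and 1217 under rhWnt3a plus OSMI. With rhWnt3a and OSMI all libraries lay below vehicle, 3.62-fold lower (log2 −1.86 ± 0.37, edgeR adjusted p = 0.00794), a call kept in all 22 alternatives. In the comparisons on either side of rhWnt3a alone it gave −0.87 ± 0.36 (edgeR adjusted p = 0.199) and −0.99 ± 0.36 (edgeR adjusted p = 0.144), and both were called with the length offset (−0.89 ± 0.24 and −1.21 ± 0.24, adjusted p 0.0335 and 0.0141). Lama1, the alpha1 chain of early embryonic laminin (chr17:67697259-67822647, plus strand), had 1490, 1480 and 1043 counts with vehicle, 3464, 1612 and 3217 under rhWnt3a, and 1594, 1549 and 3198 under rhWnt3a plus OSMI. Only rhWnt3a replicates 1 and 3 and rhWnt3a with OSMI replicate 3 were well above the vehicle range, and the rise with rhWnt3a, 2.03-fold, was not significant (log2 1.02 ± 0.36, edgeR adjusted p = 0.135) until the length offset was used (0.97 ± 0.27, adjusted p = 0.0382).

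In deposited FPKM the exchange was seen in every library. These values divide by gene lengths of 9681 bases for Lama1 and 12068 for Lama4, whereas their longest transcripts have 9526 and 6046 bases. Which of these chains ranks higher in a library thus depends on the length used, while the direction in which their ratio moved between groups does not. Lama1 made up 16.2, 17.7 and 20.0% of the summed FPKM of the alpha chains with vehicle, 43.2, 37.8 and 42.0% under rhWnt3a, and 36.3, 33.3 and 37.8% under rhWnt3a plus OSMI. Lama4 made up 29.7, 27.0 and 29.2%, then 17.8, 20.2 and 17.9%, then 10.2, 9.62 and 11.5%. In these shares the vehicle libraries were separate from both treated groups for both chains. The ratio of Lama1 to Lama4 FPKM was 0.627 ± 0.073 (SD, n = 3) with vehicle, 2.22 ± 0.31 with rhWnt3a and 3.43 ± 0.14 with both, with no overlap between any groups (exact two-sided permutation p = 0.1 for each pair, the smallest possible). Lama2, the alpha2 chain of muscle and nerve laminin, held 51.4 ± 1.61% with vehicle, 39.2 ± 1.65% with rhWnt3a and 52.0 ± 2.87% with both, and its counts (2955 to 8060) gave no call with all libraries. With the length offset it was called lower with rhWnt3a (−0.66 ± 0.17, adjusted p = 0.0284) and with both (−0.74 ± 0.17, adjusted p = 0.0131), as it was without the 3 libraries that lay apart (−0.70 and −1.05). Lama5 had 47 to 256 counts and 0.937 to 2.60% of the alpha chain FPKM, and was not called.

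**Figure D4:**
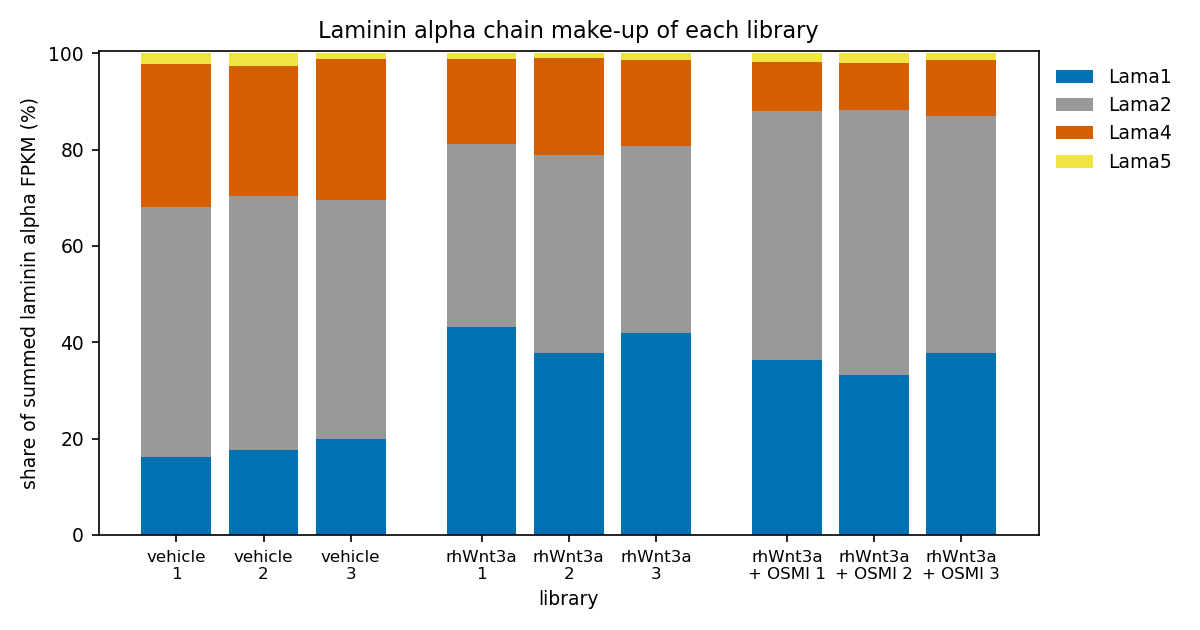
Share of each laminin alpha chain in the summed FPKM of Lama1, Lama2, Lama4 and Lama5 (y axis, percent) in each of the 9 libraries (x axis). Lama1 takes 16.2 to 20.0% with vehicle and 33.3 to 43.2% in the treated libraries, and Lama4 narrows from 27.0 to 29.7% with vehicle to 9.62 to 11.5% with rhWnt3a and OSMI.

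The common beta and gamma chains did not pass the test. Lamb1 (chr12:31265234-31329644, plus strand) had 4796, 5123 and 5354 counts with vehicle, 5769, 4597 and 5666 under rhWnt3a, and 4497, 4328 and 6382 under rhWnt3a plus OSMI. The groups overlapped throughout, with log2 differences of 0.04 ± 0.18, −0.09 ± 0.18 and −0.05 ± 0.18 in the 3 comparisons. Lamc1 (chr1:153218922-153332786, minus strand), the gamma chain of most laminins, had 12065, 12040 and 7205 counts with vehicle, 9757, 5263 and 9773 under rhWnt3a, and 8712, 8873 and 12892 under rhWnt3a plus OSMI. The low and high libraries were those that lay apart, and the log2 difference was −0.37 ± 0.32 with rhWnt3a (edgeR adjusted p = 0.626), 0.27 ± 0.31 with OSMI added and −0.10 ± 0.31 against vehicle. Lamb2 (3213 to 8038 counts) lay below vehicle in every rhWnt3a library (log2 −0.79 ± 0.26, edgeR adjusted p = 0.0987) and passed with DESeq2 (0.0386) and the length offset (0.0356).

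Fn1 (chr1:71585520-71653200, minus strand) had 583044, 700383 and 309826 counts with vehicle, 634461, 241531 and 625489 under rhWnt3a, and 354822, 349863 and 459709 under rhWnt3a plus OSMI. It took 1.39 to 4.22% of all counts of a library, and the spread within the vehicle and rhWnt3a groups was wider than any difference between groups. The log2 differences were −0.12 ± 0.43 with rhWnt3a (edgeR adjusted p = 0.928), −0.39 ± 0.43 when OSMI was added (0.597) and −0.52 ± 0.43 for both against vehicle (0.443). Without vehicle replicate 3, rhWnt3a replicate 2 and rhWnt3a with OSMI replicate 3 the last value was −0.99 ± 0.10 (adjusted p = 1.66e-07), the value with OSMI added was −0.88 ± 0.10 (adjusted p = 1.97e-06), and that with rhWnt3a was −0.11 ± 0.10 (adjusted p = 0.421). A decrease of Fn1 with OSMI was therefore not detectable with all 9 libraries and was called only without those 3.

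In shares of FPKM, some alpha chains were separate between the groups. Of the summed FPKM of the alpha chains that pair with Itgb1, Itga5 held 43.0, 43.4 and 46.6% with vehicle, 31.9, 39.2 and 32.8% under rhWnt3a, and 28.7, 26.5 and 26.1% under rhWnt3a plus OSMI. Itga11 held 14.7 ± 1.77% (SD, n = 3), 25.3 ± 6.62% and 30.2 ± 3.21%, and Itga8 held 2.56 to 3.41%, 1.92 to 2.10% and 5.03 to 6.26%. The 3 groups were separate for Itga5 and for Itga8, while for Itga11 vehicle was separate from both treated groups, which overlapped (exact two-sided permutation p = 0.1 where groups were separate).

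The other genes of matrix adhesion were read from lists written for this purpose. Of 14 further matrix ligands of integrins 13 were tested, of which 1 rose and 4 fell with rhWnt3a (7.69% and 30.8%, against 2.92% and 5.86% of all genes), 1 rose and 4 fell when OSMI was added (against 1.69% and 3.05%), and 2 rose and 7 fell with both against vehicle (15.4% and 53.8%, against 4.84% and 9.34%). Thbs2, a matricellular thrombospondin, rose by 2.92 ± 0.21 on the log2 scale with rhWnt3a (edgeR adjusted p = 4.24e-05) and fell by 1.46 ± 0.20 with OSMI (edgeR adjusted p = 0.00497), whereas Thbs1, named after its values had been seen, went the other way (−1.51 ± 0.22 and 1.24 ± 0.22, edgeR adjusted p 0.00185 and 0.0125). The genes of the alpha9 ligands named above, Tnc and Vcam1, fell against vehicle, which need not hold for other ligands of that chain. Tnc (tenascin-C) had 162 to 238 counts with vehicle, 25 to 58 with rhWnt3a and 26 to 47 with both. Vcam1 had 1634 to 2246, 949 to 1100 and 448 to 624 counts. Tgfbi, which binds collagen and integrins, went from 13 to 34 counts with vehicle to 7 in each rhWnt3a library and 0 to 1 with both, at least 8.49-fold lower than vehicle at a floor of 3 counts per library. Postn (periostin) fell by 1.72 ± 0.29 when OSMI was added (edgeR adjusted p = 0.0112). Npnt (nephronectin, the ligand of alpha8) was 35 to 50 counts with vehicle and 6 to 17 with both, a fall of 1.99 ± 0.38 (edgeR adjusted p = 0.00666). Spp1 and Ccn2 fell and Ccn1 rose against vehicle as well.

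Of 24 tested adaptors and activators that join integrins to actin, 1 rose and 2 fell with rhWnt3a (4.17% and 8.33%, against 2.92% and 5.86% of all genes), 2 rose and 0 fell when OSMI was added (8.33% and 0%, against 1.69% and 3.05%), and 0 rose and 1 fell with both (0% and 4.17%, against 4.84% and 9.34%). With rhWnt3a the shares were near those of all genes, and with both they were below them. Lims2, an adaptor of the ILK complex, fell by 1.79 ± 0.21 with rhWnt3a (edgeR adjusted p = 0.00053) and Fermt2, the kindlin of stromal cells, by 0.68 ± 0.11 (edgeR adjusted p = 0.0027), while Kank1 rose by 0.86 ± 0.23 (edgeR adjusted p = 0.0461). Vcl (vinculin) had 2377 to 4021 counts with vehicle, 1346 to 2206 with rhWnt3a and 4141 to 4937 with both, and rose 1.20 ± 0.27 in log2 with OSMI (edgeR adjusted p = 0.0345). Actn1 (alpha-actinin) rose by 0.80 ± 0.19 (edgeR adjusted p = 0.0421). Genes of talin, paxillin and focal adhesion kinase were among the 19 adaptors that were tested and not called in any comparison.

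Of 8 tested basement membrane partners of laminins, 0 rose in any comparison, 2 fell with rhWnt3a and with both against vehicle (25.0%, against 5.86% and 9.34% of all genes), and 0 were called when OSMI was added (against 1.69% higher and 3.05% lower). These were the calcium-binding proteins Smoc1, at 599 to 719 counts with vehicle, 39 to 61 with rhWnt3a and 20 to 72 with both (log2 −3.73 ± 0.37 and −3.97 ± 0.38), and Smoc2 (−1.41 ± 0.20 and −0.83 ± 0.19). Of 9 tested tetraspanins and laminin receptors other than integrins, 0 rose in any comparison, 2 fell with rhWnt3a (22.2%, against 5.86% of all genes), 1 fell with OSMI added (11.1%, against 3.05%) and 3 fell with both (33.3%, against 9.34%). Dag1, dystroglycan, a receptor for laminin alpha1 and alpha2 chains, had 16831, 16655 and 9815 counts with vehicle, 5239, 3864 and 5668 with rhWnt3a, and 7751, 8421 and 11759 with both. It fell by 1.59 ± 0.28 with rhWnt3a (edgeR adjusted p = 0.00599). Cd9, a tetraspanin that associates with alpha3 and alpha6 integrins, fell by 0.99 ± 0.24 with rhWnt3a and by 1.14 ± 0.24 with both, and the syndecan Sdc1 fell by 0.72 ± 0.11 with OSMI (edgeR adjusted p = 0.00926) and by 0.87 ± 0.11 against vehicle, where Cd81 also fell (−0.77 ± 0.22).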

How the data were processed

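Per the labels and the study's methods, poly-A selected RNA was sequenced by Novogene, and the submitters' processing notes name HISAT2 2.0.5, featureCounts 1.5.0-p3, fastp and CASAVA with mm10. Strandedness is not given in the sources used here. The authors deposited a table of raw counts per gene, FPKM values normalized for length and library, and gene lengths. The log2 fold changes and p-values of the authors' own comparisons in it were not used, and 0 per-sample columns were left out. All 38 members have the coordinates of GENCODE M21 (GRCm38).

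Counts of 9 libraries were fitted in R 4.3.3 with edgeR 4.0.16 (filterByExpr, minimum count 10, which kept 14004 genes, TMM, glmQLFit, two-sided glmQLFTest) with the Benjamini-Hochberg adjustment over these genes. Genes were called at an adjusted p under 0.05 when the log2 fold change exceeded 0.5 in size. The common dispersion was 0.0452. Standard errors come from the fit, and CPM on the log2 scale used a prior count of 2. DESeq2 1.42.0 was an alternative. Shares of deposited FPKM were compared by exact permutation tests, whose smallest p is 0.1. Depth was 16135898 to 17583945 counts per library, and limits from 3 counts cover counting error only. Overlapping and nearly identical genes were looked up in GENCODE M21. Scripts were tested on simulated data.

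The members and lists were chosen with earlier results of these data known. Genes named with values are members called in any comparison, Fn1, Itga5, Itgav, Itgb1, Lamb1 and Lamc1, and up to 6 called genes of each further list. Of the called members, 1 is counted but not reported here. The other members are given by their range, and Lama1, Itga11, Itga1, Lamb2, Itgb5 and Lama2 received further values after these had been seen. Leaving out 3 libraries together and the length offset are alternatives made because of the libraries that lay apart.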

Additional observations from a re-analysis of the deposited data

How the results depend on the processing

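Depth limits the members under about 20 counts (Itga9, Itgae, Lamb3 and Itgb4 after treatment), for which 3 counts are already 0.17 to 0.191 CPM, and the 3 libraries that lay apart widen the errors of long members. With rhWnt3a against vehicle, leaving out a library in turn gave 2 to 8 members lower (8 with all libraries, 2 without vehicle replicate 2, 3 without vehicle replicate 1 or rhWnt3a replicate 3, 4 without rhWnt3a replicate 1), 0 to 1 higher, and 716 to 1506 genes called (1230 with all libraries). For OSMI added to rhWnt3a it gave 0 to 3 lower (0 without rhWnt3a with OSMI replicate 2), 1 higher each time, and 203 to 764 genes (664 with all). For both against vehicle it gave 6 to 9 lower (6 without rhWnt3a with OSMI replicate 1), 0 to 2 higher, and 1218 to 2328 genes (1986 with all).

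Other settings moved the counts as follows, in the order rhWnt3a against vehicle, OSMI added, and both against vehicle. Without the library farthest from its group in each group, 13, 5 and 16 members were lower, 3 and 2 were higher in the first and second comparison, and 2557, 1789 and 3351 genes were called. A replicate block left 5 members lower and 0 higher in the first and 1 lower in the second, with 809, 233 and 1297 genes. With the length offset added it left 0 higher and 1202 genes in the first. Whether equal replicate numbers mark paired libraries is not known. Between libraries sharing a number, the departures from the rest of each group correlated at −0.49 to 0.44. These values cannot decide it, because every group includes a library that lay apart, which shapes such departures. Among single members the block ended calls of Itga5, Itga8, Itga9 and Itgb7 with rhWnt3a, of Itga9 with OSMI and of Itgae with both. At least 10 counts in every library left 23 members to test and gave 5 lower and 0 higher in the first and 1 lower in the second. Of the 12005 genes then tested, 976 were called in the first and 600 in the second. The 6 libraries of a comparison alone gave 0 higher and 1218 genes in the first, and 1 lower and 345 genes in the second. Unadjusted p gave 2, 3 and 2 higher, 4 lower in the second, and 2155, 2271 and 3186 genes. A fold threshold of 1 gave 796, 380 and 1118 genes and 1 lower in the second. DESeq2 gave 2 higher and 1244 genes in the second and 1 higher and 2362 genes in the third. No count filter gave 2 higher and 1481 genes in the second and 2 higher and 2563 genes in the third. The length offset gave 2 higher and 995 genes in the second and 1 higher and 2234 genes in the third. That offset with one for GC content, added after seeing the data, gave 2 and 1 higher as well, with 1067 and 2308 genes. A mean of at least 20 counts, also added then, left 25 members to test. It gave 0 higher and 1123 genes in the first and 1 lower and 664 genes in the second. Library totals in place of TMM gave 1 higher and 2136 genes in the third. They raised the share of all calls that were higher from 35.7 to 48.2% in the second and from 34.1 to 44.8% in the third. The causes were not tested, apart from the fewer libraries or genes that some settings leave by construction.

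Direction turned in members with differences near 0. With rhWnt3a, leaving out a library took Fn1 from −0.42 to 0.22 and Lamb1 from −0.0049 to 0.17, and length with GC put Lamb1 at −0.0004. With OSMI added, the ranges were −0.21 to 0.15 for Itga3, −0.34 to 0.0146 for Itga5, −0.0269 to 0.0215 for Itgb1 and −0.28 to 0.0583 for Lamb1. Itga3 became −0.39 without the farthest libraries, −0.0622 with the length offset, −0.0595 with the block as well, and −0.13 with length and GC. Itgb1 became 0.0301 with library totals, 0.0276 without the farthest libraries, 0.0285 with length and GC, and 0.0027 with 10 counts in every library, and Lamc1 became −0.19 without the farthest libraries. Against vehicle with both, the ranges were −0.0284 to 0.17 for Itgav, −0.24 to 0.11 for Lamb1 and −0.33 to 0.10 for Lamc1. Itgav became −0.10 without the farthest libraries, −0.17 with the length offset, with or without the block, and −0.12 with length and GC, and Lamb1 became 0.0149 with library totals. Over 51 pairs of a named member and a comparison and 1094 alternative values, 37 reversed, 70 lost and 26 gained a call.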

Other observations

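Markers of cell types in which some of these chains are prominent were low in every group. The summed level of 8 endothelial markers, read beside Lama4, was 2.60 to 4.33 CPM with vehicle, 1.59 to 3.17 with rhWnt3a and 2.93 to 3.63 with rhWnt3a and OSMI, and Cdh5 and Kdr had 0 or 1 count in any library. Among them Emcn had 19, 34 and 22 counts with vehicle and 0 in each rhWnt3a library, whereas Vwf had 16 to 20 counts with vehicle, 21 to 40 with rhWnt3a and 34 to 51 with both, and was called higher with both than with vehicle (log2 1.15 ± 0.34, edgeR adjusted p = 0.0499). The 6 megakaryocyte markers, read beside Itga2b, summed to 1.04 to 2.38 CPM with vehicle, 2.37 to 3.18 with rhWnt3a and 1.87 to 2.04 with both. Among these Pf4, a platelet chemokine, had 3 to 6 counts with vehicle, 16 to 30 with rhWnt3a and 8 to 11 with both, and rose with rhWnt3a (log2 2.28 ± 0.41, edgeR adjusted p = 0.00606). The 10 stromal markers, which include Vcam1 and Col1a1, summed to 18940 to 25630, 15820 to 18670 and 8473 to 16210 CPM. Of 9 tested, 3 fell with rhWnt3a (33.3%, against 5.86% of all genes) and 4 when OSMI was added (44.4%, against 3.05%). With both against vehicle 5 fell (55.6%, against 9.34%), among them Ly6a, Nt5e and Vim, and 0 rose in any comparison. The part of these levels in the results was not tested.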
